A study of Homo sapiens with 2 samples.

Results

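The genes described here are 10 genes of lipoprotein assembly: the apolipoprotein genes APOA1, APOA2, APOB, APOC1, APOC3, APOE, APOH, APOM and APOL1, and MTTP, which encodes the large subunit of the microsomal triglyceride transfer protein. They were taken by name, as all probe sets whose only annotated gene symbol is one of the 10, and this gave 20 probe sets of 54675 on the array and 10 genes of 19775. The RNA was that of PLC/PRF/5, a human line established from a liver cancer (hepatocellular carcinoma), and was read on 2 Affymetrix arrays, 1 for each group. The first group was chemoresistant hepatospheres, which are spheroids of PLC/PRF/5 kept under a combination of cisplatin, a platinum drug, and doxorubicin, an anthracycline. The second was differentiated cells, which were made from spheroids by adding fetal bovine serum (FBS) and letting them attach. Serum, attachment and growth form therefore differed at once between the groups, and from the labels it is not clear if the cells given serum had also been exposed to the drugs. No group had a replicate, so no difference could be tested and none carries an error between cultures.

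Lipoproteins carry fat and cholesterol in blood. The liver builds very low density lipoprotein by loading lipid onto apolipoprotein B in the endoplasmic reticulum, a step that needs the microsomal triglyceride transfer protein, and it makes high density lipoprotein around apolipoproteins A-I and A-II. The smaller C and E proteins move between particles, where they steer lipase activity and uptake by receptors. Hepatocytes are the main source of most of these proteins in the body, and hepatoma lines are known to keep making many of them.

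The unit is the MAS5 signal, a linear brightness of each probe set, and a difference is the log2 signal in hepatospheres minus that in differentiated cells. A signal under 84.1, the higher of the medians of the 2 arrays, was treated as not distinguishable from the dim bulk of probe sets and is called below the floor. Each gene was represented by its brightest probe set. Of the 10 genes, 9 were above the floor on both arrays and 1, APOL1, was below it on both. Of the 9, 5 read at least 2-fold higher in hepatospheres (APOA2, APOH, APOC1, APOE and MTTP), 0 read 2-fold lower and 4 lay within 2-fold (APOM, APOC3, APOB and APOA1). Over all 12766 genes that reached the floor on at least 1 array, 12.5% read 2-fold higher and 8.83% 2-fold lower. The median difference was 1.09 for the 9 genes and 0.05 for all genes.

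These directions hold relative to the bulk of genes. The MAS5 scaling makes the arrays equal on average, with a 2% trimmed mean of 500.1 on both, whereas the 24 probe sets for spiked poly(A) control RNAs read a median of 2.04-fold higher in hepatospheres (range 1.65 to 2.61). When the arrays were scaled to those controls instead, the median of all genes moved to -0.93, and genes 2-fold apart went from 1601 higher and 1127 lower to 399 higher and 5764 lower. Of the 9 genes only APOA2 then stayed 2-fold higher, at 1.31, and APOA1 became 2-fold lower, at -1.25. The remaining 7 lay between -0.89 and 0.60, and the sign turned for APOM (-0.23), APOB (-0.89) and APOC3 (-0.88). The 3' to 5' signal ratio of ACTB, a measure of RNA integrity, was 1.48 in differentiated cells against 2.64 in hepatospheres, and that of GAPDH was 0.99 and 1.04. The part of these differences in the apolipoprotein values was not tested.

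**Figure D1:**
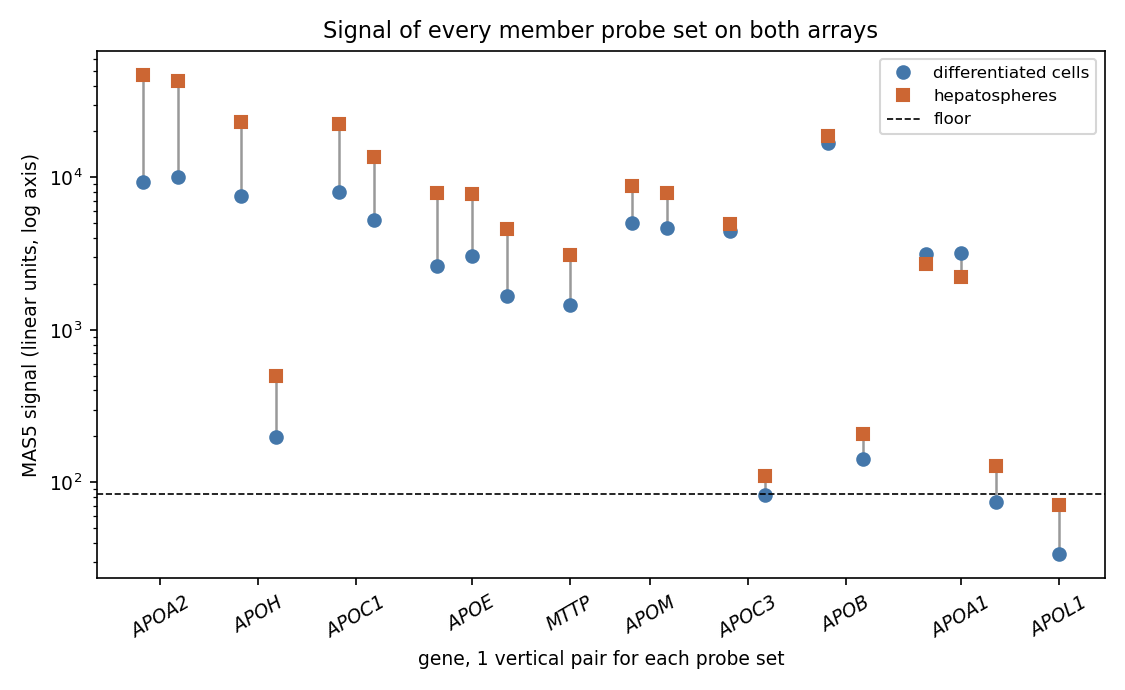
MAS5 signal (log axis) of each of the 20 probe sets of the 10 genes in differentiated cells (circles) and hepatospheres (squares), 1 array each, with the floor of 84.1 as a dashed line. The pairs of APOA2, APOH, APOC1, APOE and MTTP stand clearly apart, the bright pairs of APOB and APOC3 almost coincide, APOA1's bright pairs are the only ones with the circle on top, and APOL1 lies below the floor.

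Promoter sequences from RefSeq (GRCh38.p14) were matched by symbol to 6 of the 10 genes in the table used here: APOA2, APOC1, APOE, APOH, APOM and MTTP. Those of APOA1, APOB, APOC3 and APOL1 were not analysed here. The 250 bases before the annotated start are shown for 3 of the genes that read higher: APOA2, which was furthest apart, and APOH and MTTP, in which a searched motif was found. Capitals mark matches, on either strand, to TATAAA (the TATA box), GTTAAT (an arm of the palindrome bound by homeodomain factors of liver) and AGGTCA (the core element of nuclear receptors). No match overlapped another.
APOA2 (chr1:161223629-161223878, minus strand): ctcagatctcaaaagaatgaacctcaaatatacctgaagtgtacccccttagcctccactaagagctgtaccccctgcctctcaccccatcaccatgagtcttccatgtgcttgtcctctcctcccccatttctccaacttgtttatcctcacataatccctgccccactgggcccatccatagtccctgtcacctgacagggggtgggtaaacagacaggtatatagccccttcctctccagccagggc
APOH (chr17:66229416-66229665, minus strand): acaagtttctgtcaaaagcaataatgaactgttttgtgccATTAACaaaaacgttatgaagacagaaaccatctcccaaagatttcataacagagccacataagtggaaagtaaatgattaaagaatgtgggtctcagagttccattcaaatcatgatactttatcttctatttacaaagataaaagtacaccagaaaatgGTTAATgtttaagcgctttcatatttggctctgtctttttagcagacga
MTTP (chr4:99574574-99574823, plus strand, the second of 2 annotated starts): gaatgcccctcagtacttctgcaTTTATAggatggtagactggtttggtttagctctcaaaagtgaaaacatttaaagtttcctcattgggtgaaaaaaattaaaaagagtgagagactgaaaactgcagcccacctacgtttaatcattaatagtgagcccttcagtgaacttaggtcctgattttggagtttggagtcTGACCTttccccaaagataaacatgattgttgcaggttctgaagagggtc
APOH held 2 matches to GTTAAT, at 210 to 205 and at 49 to 44 bases before the start. MTTP held AGGTCA on the opposite strand at 50 to 45 bases and TATAAA on the opposite strand at 227 to 222 bases. None of the 3 motifs was found in the windows of APOA2, APOC1, APOM, the 3 annotated starts of APOE or the other start of MTTP. Of the 34943 promoter windows of the same length available here, which do not cover every gene, 10.8% held TATAAA, 6.24% GTTAAT and 12.1% AGGTCA. The matches describe letters in these windows and not bound sites.

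For very low density lipoprotein, the core protein and its loading factor differed by unequal amounts. APOB encodes the large structural protein of that particle. Its bright probe set read 16827 in differentiated cells against 18551 in hepatospheres, a 1.10-fold difference (0.14 on the log2 scale). A dim second APOB probe set read 142 and 206, a difference of 0.54. Both APOB probe sets were therefore slightly higher in hepatospheres, neither by 2-fold.

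MTTP encodes the subunit that transfers triglyceride onto the nascent particle. It had 1 probe set, which read 1450 in differentiated cells against 3083 in hepatospheres, 2.13-fold higher (1.09). MTTP lay just past the 2-fold line, and it was the only one of the 5 higher genes for which no second probe set could be set beside the first. The ratio of MTTP to APOB signal was 1.93-fold higher in hepatospheres. Across the pairs of an MTTP and an APOB probe set it ranged from 0.55 to 0.95 on the log2 scale. The 2 brightest probe sets of one gene lay 1.13 apart at the 90th percentile over all genes measured, so this ratio is within that spread. A ratio within an array is not moved by scaling the array as a whole, so this describes unequal change and not which of the genes changed.

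The proteins of high density lipoprotein split. APOA2, which encodes the second most abundant protein of that particle, had the largest difference of the 10 genes. Its probe sets read 9295 and 10033 in differentiated cells against 47101 and 42624 in hepatospheres, 5.07-fold and 4.25-fold higher (2.34 and 2.09). The difference ranked 248 from the top among the 12766 genes. The highest signal of any probe set on the hepatosphere array was 59912, so APOA2 was read near the top of the array's range there; what that did to its size was not tested.

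APOA1 encodes the main protein of the same particle and the activator of the plasma enzyme LCAT. Its bright probe sets read 3153 and 3178 in differentiated cells against 2699 and 2213 in hepatospheres, 1.17-fold and 1.44-fold lower (-0.22 and -0.52). Another, dim probe set went the other way, from 74.4, below the floor, to 128. APOA1 was the only one of the 9 genes below 0, and both of its probe sets above the floor on both arrays were lower. It stood at 0.01 with the mean over its probe sets, which takes in the dim reading. The dim probe set is the only one left without names that mark shared or cross-matching sequence. Its value of 0.61 is a bound that could only lie above 0, so the change of sign rests on a reading below the floor. The ratio of APOA2 to APOA1 signal was 5.92-fold higher in hepatospheres (2.31 to 2.86 on the log2 scale over 4 pairs of bright probe sets).

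APOM encodes a lipocalin that carries sphingosine 1-phosphate on high density lipoprotein. Its probe sets read 5029 and 4666 in differentiated cells against 8737 and 7841 in hepatospheres, 1.74-fold and 1.68-fold higher (0.80 and 0.75). With a gap of 0.05 between them they were the most alike of any pair among the 10 genes. APOM lay nearest to the 2-fold line from inside, as MTTP did from outside.

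Among the exchangeable apolipoproteins, APOE and APOC1 read higher and APOC3 did not move past 2-fold. APOE encodes the ligand by which remnant particles are taken up by cells. Its 3 probe sets read 3069, 2618 and 1676 in differentiated cells against 7765, 7887 and 4563 in hepatospheres, 2.53-fold, 3.01-fold and 2.72-fold higher (1.34 to 1.59 on the log2 scale). On each of the 3 the hepatosphere signal was over 2-fold the other. All 3 carry names that mark shared or cross-matching sequence, so APOE has no value when such probe sets are left out.

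APOC1 encodes a small protein that inhibits cholesteryl ester transfer and slows remnant uptake. Its probe sets read 7964 and 5256 in differentiated cells against 22409 and 13511 in hepatospheres, 2.81-fold and 2.57-fold higher (1.49 and 1.36). Both carry names that mark cross-matching sequence, and the genome holds a close APOC1 pseudogene, APOC1P1, so signal from that copy cannot be told apart here.

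APOC3 encodes an inhibitor of lipoprotein lipase. Its bright probe set read 4466 in differentiated cells against 4942 in hepatospheres, a 1.11-fold difference (0.15), and a dim one read 82.7, just below the floor, and 109. The ratio of APOC1 to APOC3 signal was 2.54-fold higher in hepatospheres.

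APOH encodes beta-2-glycoprotein I, a plasma protein that binds anionic phospholipid. Its bright probe set read 7507 in differentiated cells against 23222 in hepatospheres, 3.09-fold higher (1.63). The dim one read 199 and 499, 2.51-fold higher (1.33), so both the bright and the dim reading were past 2-fold.

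APOL1 encodes a secreted protein of high density lipoprotein that kills trypanosomes. Its 1 probe set read 33.6 in differentiated cells against 71.0 in hepatospheres, below the floor on both arrays, so no fold is given.

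**Figure D2:**
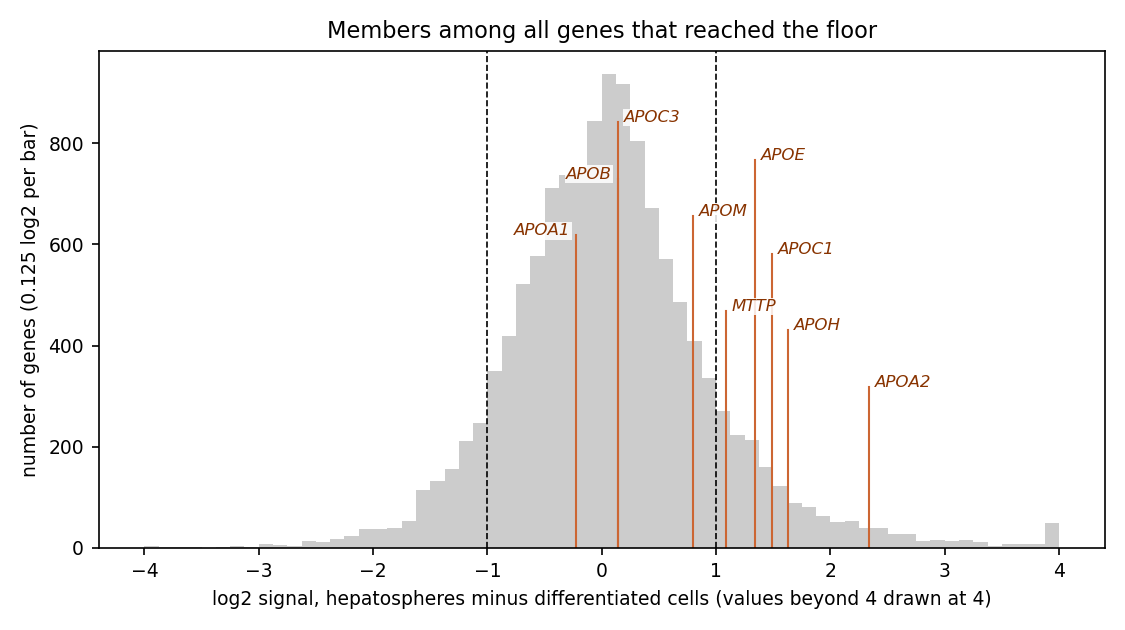
Number of genes (grey bars) by log2 difference, hepatospheres minus differentiated cells, for the 12766 genes that reached the floor, with the 9 members above the floor as orange lines whose heights only separate the labels and 2-fold as dashed lines. The members run from APOA1 at -0.22 to APOA2 at 2.34, with 5 to the right of the upper dashed line.

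Probe sets of one gene give the only repeat readings in these data, and they share each array. Across 5206 genes with at least 2 probe sets above the floor on both arrays, the differences of the 2 brightest probe sets lay a median of 0.34 apart, and 1.13 apart at the 90th percentile. For the 7 members where this could be computed the gap ran from 0.05 (APOM) to 0.40 (APOB). In all, 18 of the 20 member probe sets read higher in hepatospheres and 2 read lower, both of APOA1. The 18 include that of APOL1, below the floor on both arrays, and dim ones of APOA1 and APOC3, above it only in hepatospheres. The median difference of all genes was also above 0, at 0.05, or at 0.12 with no floor. The share of all probe sets that read higher was not counted. Probe sets of one gene are not separate observations, so the 18 describe these readings only.

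**Figure D3:**
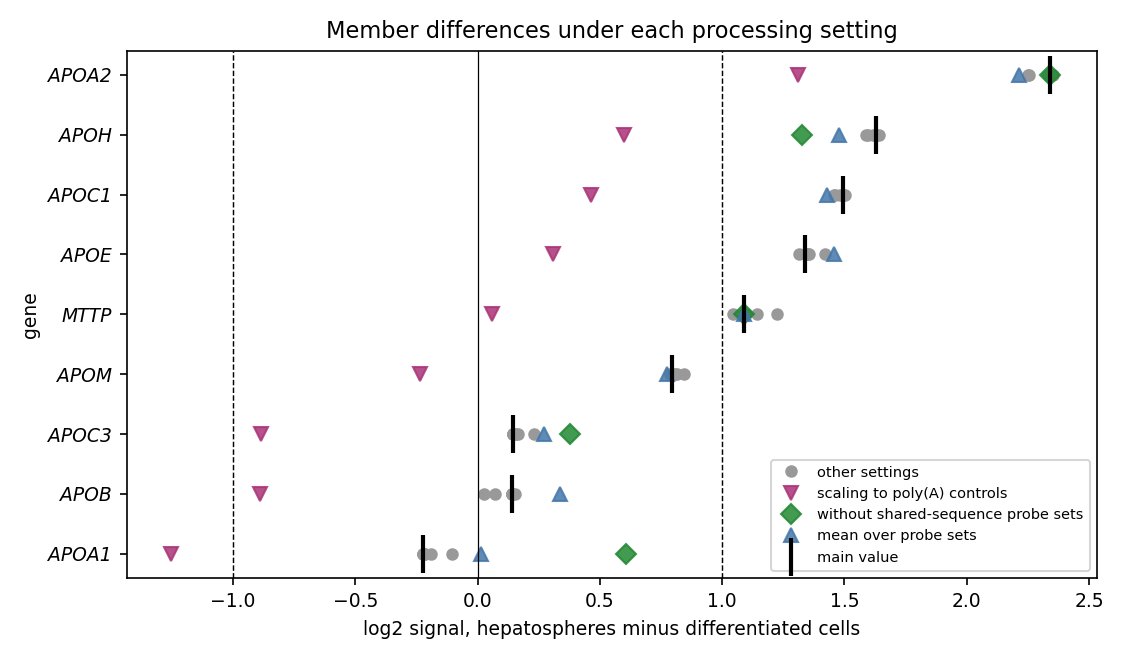
Log2 difference of each of the 9 members above the floor under every processing setting, with the value as reported (black bar), scaling to the poly(A) controls (purple), the mean over probe sets (blue), only probe sets without shared-sequence names (green) and the others (grey); dashed lines mark 2-fold. APOA2 stays past 2-fold in all of them, between 1.31 and 2.35, and APOA1 runs from -1.25 to 0.61, the latter a bound from its dim probe set.

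Several of these genes lie in clusters. APOA1 and APOC3 are neighbours on chromosome 11, beside APOA4 and APOA5, and APOE and APOC1 are neighbours on chromosome 19, upstream of APOC2. APOE and APOC1 were alike in size, at 1.34 and 1.49. APOC2, which encodes the activator of lipoprotein lipase, read 265 and 337 (0.35), and the genes next to the cluster on either side, TOMM40 and CLPTM1, stood at -0.64 and 0.33. NECTIN2, the gene beyond TOMM40, encodes an adhesion protein and read 952 in differentiated cells against 3525 in hepatospheres, 3.70-fold higher (1.89, or 0.87 with the mean over probe sets), a larger difference than that of APOE or APOC1. On chromosome 11, APOA4, an apolipoprotein made mainly by the intestine, read 30.1 in differentiated cells, below the floor, and 232 in hepatospheres, at least 2.75-fold higher (0.60 with a floor at the 60th percentile), while APOA5 was below the floor on both arrays (71.7 and 24.1). The flanking genes ZPR1 and SIK3 stood at -0.84 and -1.30, SIK3 being 2.47-fold lower. Genes other than apolipoproteins were named here after their values were seen.

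**Figure D4:**
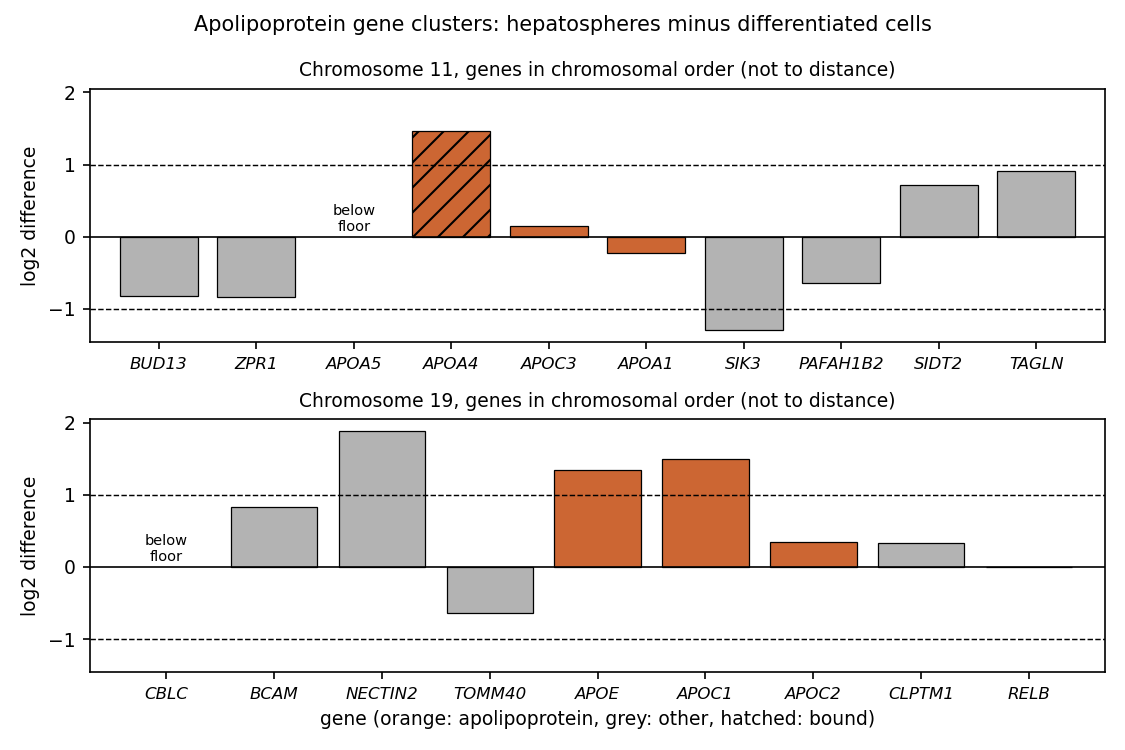
Log2 difference, hepatospheres minus differentiated cells, of the apolipoprotein clusters on chromosomes 11 and 19 (orange) and their neighbours (grey) in chromosomal order; hatching marks a bound and dashed lines 2-fold. APOE and APOC1 stand at 1.34 and 1.49 between TOMM40 at -0.64 and APOC2 at 0.35, with NECTIN2 at 1.89 beyond TOMM40, whereas APOC3 and APOA1 lie near 0 beside a bound of 1.46 for APOA4.

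Other genes listed as apolipoproteins by name or as proteins of lipoprotein particles did not all go one way. Of those that reached the floor 6 lay above 0, with APOA4 and CLU past 2-fold and APOC2 and PON1 at 0.35 and 0.06. The 6 include APOA4 and APOL3, which were above the floor only in hepatospheres, so their bounds could only lie above 0. The share of all genes above 0 was not counted. Those below 0 were APOL6, APOO and APOOL (-0.15). Of 20 listed, 16 were named on the array, and 9 of those reached the floor on at least 1 array. Of these 9, 2 read 2-fold higher, 1 lower and 6 within 2-fold, beside 12.5% higher and 8.83% lower over all genes. Their median of 0.07 is the bound of APOL3, which was above the floor only in hepatospheres. Under poly(A) scaling 0 read 2-fold higher and 3 lower, with CLU at 0.52 and APOA4 at 0.68. Of all 12397 genes in that setting, 399 read higher and 5764 lower. CLU, apolipoprotein J, a secreted chaperone, read 5678 in differentiated cells against 16681 in hepatospheres, 2.94-fold higher, and 2.31 on the log2 scale instead of 1.55 with the mean over its probe sets. APOL6, an intracellular relative of APOL1, read 280 and 135, 2.07-fold lower (-0.87 with the floor at the 60th percentile). APOO, a mitochondrial protein despite its name, read 4251 and 2514 (-0.76). APOA5, APOD, APOF, APOL4, APOL5, APOBR and LPA were below the floor on both arrays.

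Genes of the machinery that builds and ships the particle lay mostly above 0. All 16 named genes of 17 listed reached the floor, of which 5 read 2-fold higher, 0 lower and 11 within 2-fold (median 0.83), and 14 lay above 0. These counts include TM6SF2 and CES1, which were above the floor only in hepatospheres, so their bounds could only lie above 0. The share of all genes above 0 was not counted. Over all genes 12.5% read 2-fold higher and 8.83% lower, with a median of 0.05. Under poly(A) scaling 0 of the 16 read 2-fold higher and 2 lower, where 399 and 5764 of all 12397 genes did. SAR1B, the small GTPase that forms the vesicles in which large lipoproteins leave the endoplasmic reticulum, read 2035 in differentiated cells against 5595 in hepatospheres, 2.75-fold higher. DGAT1, an enzyme of triglyceride synthesis, read 585 and 1331, 2.28-fold higher. CIDEB, a lipid droplet protein needed for particle lipidation, read 361 and 786, 2.18-fold higher (0.97 with log2 of signal plus floor). TM6SF2, a protein of the same step, read 33.0, below the floor, and 206, at least 2.45-fold higher, or by 0.43 in log2 units with a floor at the 60th percentile. MIA3, the cargo receptor TANGO1, read 408 and 856, 2.10-fold higher, but stood at -0.45 without shared-sequence probe sets. P4HB, protein disulfide isomerase and the partner subunit of MTTP in the transfer protein, read 21757 and 38412 (0.82). DGAT2, the other enzyme of the last step of triglyceride synthesis, was on the opposite side of 0, at 607 and 377 (-0.69).

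Receptors, plasma enzymes and lipid exporters had 0 genes 2-fold lower, in short lists and beside a share of 8.83% over all genes. The share of all genes 2-fold higher was 12.5%. Under poly(A) scaling 1, 2 and 0 of them respectively stayed 2-fold higher, and 399 of all 12397 genes read 2-fold higher. Of 14 listed receptors and their regulators, 11 were named and 8 reached the floor, of which 2 read higher (median 0.60). They were CD36, a scavenger receptor and fatty acid carrier, at 115 and 2392 (4.38, or 1.37 with the mean over probe sets), and LRP1, the remnant receptor that binds apolipoprotein E, at 338 and 790 (1.23, or 0.11 with the mean over probe sets). SCARB1, the high density lipoprotein receptor, read 5317 and 9953 (0.90), and VLDLR, the receptor for very low density lipoprotein, 251 and 393 (0.65). Of 11 plasma lipid enzymes, transfer proteins and inhibitors, 9 were named and 5 reached the floor, of which 3 read higher (median 1.15). That median is the bound of PLTP, and both PLTP and LCAT were above the floor only in hepatospheres. ANGPTL4 and ANGPTL8, which inhibit lipoprotein lipase or guide its inhibition, were 6.86-fold and 5.52-fold higher. PLTP, the phospholipid transfer protein, was at least 2.22-fold higher, from 25.0 to 187 (0.29 with a higher floor, at the 60th percentile). LPL, LIPG, CETP and GPIHBP1 were below the floor on both arrays.

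Lipid export was represented by 8 genes, all named, of which 6 reached the floor and 3 read higher (median 0.85). ABCA7, a phospholipid transporter, was 3.32-fold higher, and ABCG1, which passes cholesterol to high density lipoprotein, 2.12-fold (0.89 with the mean over probe sets). NPC1, which moves cholesterol out of lysosomes, was 3.10-fold higher on its brightest probe set and stood at 0.04 with the mean over probe sets. ABCA1, which loads lipid onto apolipoprotein A-I, read 991 and 1238 (0.32), within 2-fold like APOA1 itself.

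**Figure D5:**
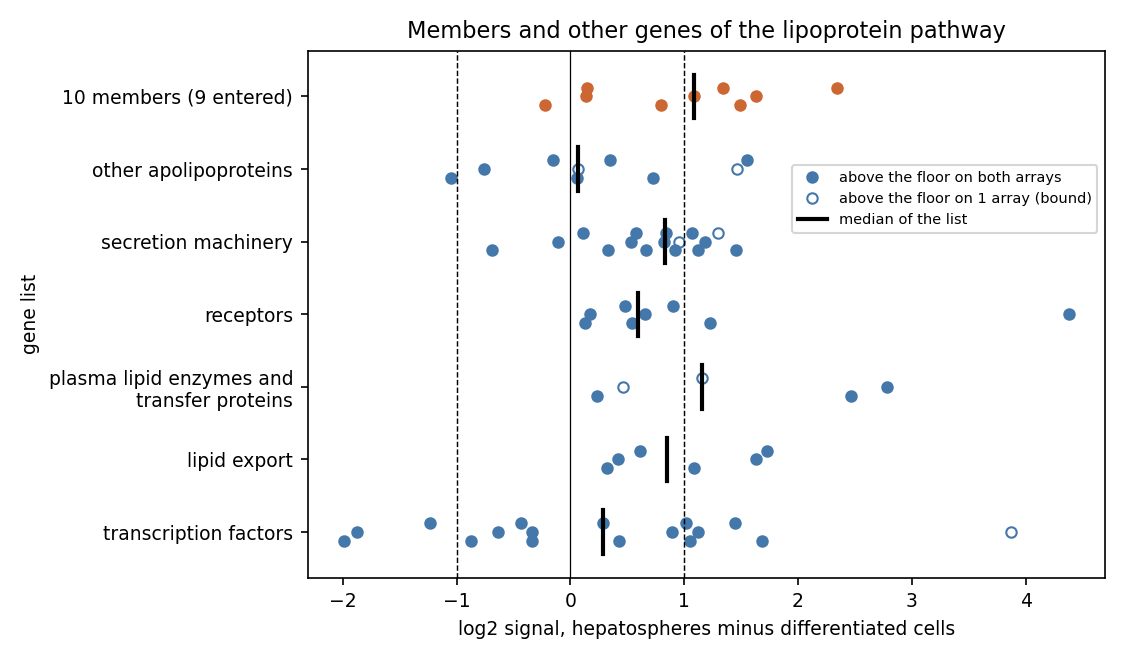
Log2 difference, hepatospheres minus differentiated cells, of the 9 members above the floor (orange) and of the other listed genes of the pathway (blue) by list, with the median as a black bar, open circles for genes above the floor on 1 array only and dashed lines at 2-fold. The medians lie between 0.07 (other apolipoproteins) and 1.15 (plasma lipid enzymes). Both of these are bounds, of APOL3 and PLTP, and depend on where the floor is set. The transcription factors spread from -1.99 to a bound of 3.87.

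Transcription factors known to act on apolipoprotein genes in liver went both ways. Of 24 listed, 18 were named and 17 reached the floor, of which 6 read 2-fold higher, 3 lower and 8 within 2-fold (median 0.29). Over all genes 12.5% read 2-fold higher and 8.83% lower. Under poly(A) scaling 1 of 18 factors read 2-fold higher and 8 lower. Of all 12397 genes 399 then read higher and 5764 lower, so the 8 were close to the share of all genes. NR2F1 (COUP-TFI), a nuclear receptor known to repress several apolipoprotein promoters, read 1.2 in differentiated cells against 1229 in hepatospheres, at least 14.6-fold higher (3.87 on the log2 scale, or 3.01 and 4.63 with the floor moved to the 60th and 40th percentiles). PPARA, the fatty acid receptor that acts on APOA1, APOA2 and APOC3 in human liver, read 398 and 1282, 3.22-fold higher. FOXA3 and FOXA2, forkhead factors of hepatocytes, were 2.72-fold and 2.07-fold higher, whereas FOXA1 was 2.34-fold lower (-0.95 with log2 of signal plus floor). NR0B2, a nuclear receptor that represses other receptors, was 2.18-fold higher (0.92 with loess and 0.82 with log2 of signal plus floor) and SREBF2, the regulator of cholesterol genes, 2.02-fold (0.54 with the mean over probe sets). NR5A2, a nuclear receptor of liver, read 541 and 136, 3.97-fold lower, and CEBPA, a factor of differentiated hepatocytes, 5955 and 1624, 3.67-fold lower.

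The label of a hepatocyte-derived line was checked on 10 hepatocyte markers, all above the floor on both arrays. Of these 3 read 2-fold higher in hepatospheres (TTR 5.62-fold, ALB 2.71-fold and FGA 2.44-fold), 2 lower (RBP4 2.55-fold and AHSG 2.24-fold) and 5 within 2-fold, with a median of 0.78. Over all genes 12.5% read 2-fold higher and 8.83% lower. FGA stood at 0.80 with the mean over probe sets. Under poly(A) scaling TTR stayed 2-fold higher at 1.46, ALB and FGA stood at 0.41 and 0.26, and RBP4 and AHSG at -2.38 and -2.20. Their summed signal was 152975 in differentiated cells against 233693 in hepatospheres. Because intestine also makes apolipoproteins, 8 intestinal markers were listed. The 4 that reached the floor all read 2-fold higher: KRT20 43.8-fold, LGALS4 8.49-fold, VIL1 3.04-fold and CDH17 2.32-fold. Under poly(A) scaling KRT20 and LGALS4 stayed past 2-fold, at 4.42 and 2.06, and VIL1 and CDH17 stood at 0.57 and 0.18. CDX1, CDX2, FABP2 and SI, from the same list, were below the floor on both arrays, and the summed signal of the 8 went from 3055 to 17705. Of 5 biliary markers SOX9 and KRT7 read higher, KRT7 with the opposite sign (-0.71) without shared-sequence probe sets, while KRT19, EPCAM and CFTR were below the floor; their sum went from 873 to 3947. Macrophages, which make APOE and APOC1, were represented by 6 named markers, of which CSF1R reached 97.7 in hepatospheres and 5 were below the floor on both arrays, summing to 112 and 242. Of 7 stromal and endothelial markers only PECAM1 (0.16) and COL1A1 (0.70) reached the floor, and the sum was 3741 and 4443. The part of the intestinal and biliary markers in the apolipoprotein values was not tested. In bulk RNA, a larger share of cells making a transcript and more transcript per cell cannot be told apart.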

How the data were processed

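Total RNA of 2 PLC/PRF/5 cultures was taken up in Trizol and biotin-labelled for hybridisation, per the labels' protocols. The authors deposited intensity values: a linear signal for each probe set, from MAS5 per the submitters' processing notes (version and target not given in the sources used here). MAS5 subtracts background and scales each array, so weak signals are noisy. Of 54675 probe sets, 62 were controls, 41091 had 1 gene symbol in GEO's annotation of the array, 1801 had several and were not named, and 11721 had none. Gene IDs of 41037 matched RefSeq (GRCh38.p14), which changed 0 symbols.

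Each gene was represented by the probe set whose mean log2 signal was highest. Signals below the floor, the higher of the arrays' 50th percentiles (84.1), were set to it, so such a fold is a lower bound; genes below it on both arrays were left out of counts. A difference of 2-fold or more was counted. With 1 array a group there is no test, and precision is limited by the number of arrays. The code was checked on simulated arrays. The genes, pathway lists and markers were chosen with earlier results of these data known. Besides the 10 genes, the text names up to 4 genes with the largest differences from each pathway list, any that were 2-fold apart, the apolipoprotein neighbours, and further genes picked after their values were seen. Alternatives were median centring, quantile normalization, loess (span 0.3), scaling to poly(A) controls, no floor, a floor at the 40th or the 60th percentile, the mean over probe sets, log2 of signal plus floor, leaving out probe sets that share or cross-match sequence (marked _s_at, _x_at or _a_at) and a 1.5-fold threshold. Python 3.11.15, numpy 2.4.6, pandas 2.3.3, statsmodels 0.14.6 and matplotlib 3.10.9 were used.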

Additional observations from a re-analysis of the deposited data

How the results depend on the processing

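Of the 10 genes, 5 read 2-fold higher and 0 lower, with a median of 1.09. Scaling to the poly(A) controls left 1 higher and 1 lower, with a median of 0.058. Without shared-sequence probe sets 5 members could be measured (APOA1, APOA2, APOC3, APOH and MTTP) and 3 read 2-fold higher. Under the other alternatives the higher count stayed within 1.5 times of 5 and the median within 0.34 of 1.09, the typical gap between probe sets of one gene. Over 86 member values under alternatives, the sign was kept in 81 and turned in 5, which were APOA1 with the mean over probe sets and without shared-sequence probe sets, and APOB, APOC3 and APOM under poly(A) scaling. Both turns of APOA1 rest on its dim probe set, which was below the floor in differentiated cells. No paired analysis was possible because each group has 1 array and no result comes from a test. Weak signals limit APOL1, APOA4, TM6SF2, PLTP and NR2F1, whose values near or below the floor depend on where it is set.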
